A study of Mus musculus with 80 samples.

Results

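The DNA that co-precipitated with dimethylated lysine 9 of histone H3 (H3K9me2) was compared between mouse embryonic stem cells (ESCs) in 2i and in serum by bisulfite sequencing of immunoprecipitated chromatin (ChIP-BS). The comparison rests on 4 bound libraries, 2 from serum and 2 from 2i, of the 80 samples in the series. Its units were autosomal windows of 10 kb with 20 or more calls in each of the 4 libraries, after positions with over 20 calls had been left out. Of the 238772 windows with a call in any ChIP-BS library, 184269 (77.2%) met this rule, and 54503 did not. The rule used depth only and no methylation value.

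All 4 bound libraries and the 4 matching inputs came from wild-type ESCs of the E14 background. Serum cells were grown with LIF, and 2i cells in serum-free N2B27 with LIF, PD0325901 (an inhibitor of MEK) and CHIR99021 (an inhibitor of GSK3). The labels do not give the time in 2i, and the study describes these cells as long-term 2i. Cross-linked chromatin was precipitated with the antibody Abcam ab1220. Reduced representation bisulfite sequencing (RRBS) of 5 lines, which covers CpG-rich fragments, was used as a separate readout of such fragments in the same windows. These lines were E14, UHRF1 WT and UHRF1 KO (genotype UHRF1-/-, E14 background, deletion induced from a floxed allele) and TET WT and TET TKO (genotype TET1/2/3-/-, C57/129/FVB background).

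In mammals, CpG methylation is copied after replication by the maintenance enzyme DNMT1. UHRF1 guides it, through one domain that recognises hemimethylated CpG and another that binds methylated H3K9. H3K9me2 is deposited mainly by the G9a/GLP complex and covers broad, mostly inactive domains. ESCs in serum are highly methylated, while ESCs in 2i are hypomethylated across the genome. The comparison asks how much methylation remained on the DNA that still carried the mark.

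Bound libraries held 21862897 and 24853266 calls in serum and 25246767 and 20026550 calls in 2i. A call is one reading of one cytosine position as methylated or unmethylated, and the median kept window had 84 to 107 calls per library. Mitochondrial DNA, which has no histones, gave 296 to 542 calls in the bound libraries against 42227 to 55325 in the inputs, with no limit on calls per position. No bound library stood apart from its partner: windows varied between replicates by a dispersion of 1.38 times binomial sampling. All 4 were counted as separate samples because of their labels, which this dispersion does not establish. Nothing in the labels says that replicates were separate cultures, so p-values describe these samples only. Window p-values rest mainly on a dispersion pooled over windows (143 prior degrees of freedom against 2 residual).

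H3K9me2-bound DNA lost methylation in nearly all windows. The level of bound DNA was 81.2% in both serum libraries, and 40.3% and 40.1% in the 2i libraries. The 2i libraries thus lay far below serum, with no overlap. Means were 81.2% ± 0.0223 in serum and 40.2% ± 0.198 in 2i (SD, n = 2 each), a difference of -41.0 percentage points. In relative terms 49.5% of the serum level was kept, and the 4 pairings of a 2i with a serum library gave 49.3% to 49.7%. With 2 against 2 libraries an exact two-sided permutation test gave p = 0.333, the smallest p this design allows.

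**Figure D1:**
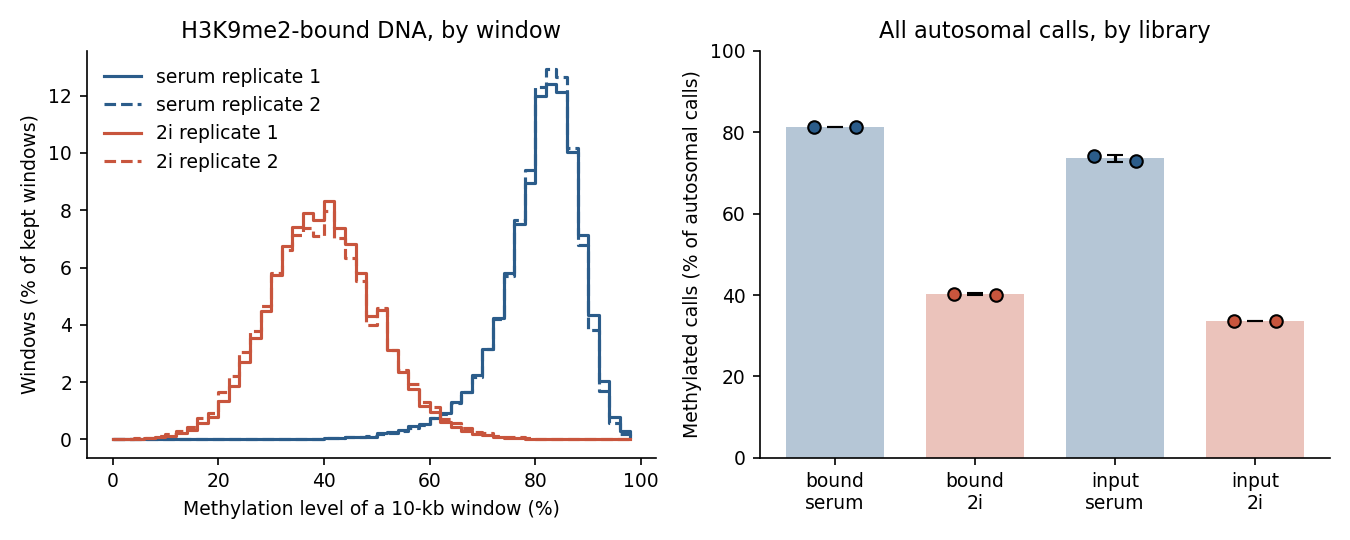
Left, share of the 184269 kept windows (vertical axis, %) by methylation level in steps of 2 percentage points (horizontal axis, %), with 1 line for each bound library. Right, percent methylated of autosomal calls at positions with 20 calls or fewer, in each bound and input library (points). Bars are means and error bars are SD (n = 2). The replicates of a medium nearly coincide, and the 2i curves centre near 39% against 82% in serum.

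The input was measured in the same way. Its level was 74.2% and 73.0% in serum and 33.6% in both 2i libraries, so that 45.7% was kept. Bound DNA was more methylated than the input in each medium, by 5.58 percentage points in serum and 5.49 in 2i on average over the 175496 windows with 20 or more calls in all 8 libraries. Over autosomal calls at positions with 20 calls or fewer, the loss was -41.0 points in bound DNA and -40.0 in the input, a difference of -1.02 points. Exact permutation of the bound and input labels within each medium gave p = 0.556 (36 arrangements, two-sided). As a share of the serum level, bound DNA kept 3.83 points more than the input, with the same exact permutation p of 0.556. Pairings of single libraries gave 49.3% to 49.7% for bound DNA and 45.3% to 46.1% for the input, without overlap. The 2 scales thus order bound DNA and input in opposite ways. Swapping the labels also moves the gap in level between the fractions, so this permutation cannot give a low p to differences of this size and does not bear on them. The difference of the losses was -0.0894 points averaged over windows, -1.91 with no limit on calls per position, -1.59 without serum replicate 1 and -0.455 without serum replicate 2. That of the shares kept was 1.84 points with no limit on calls and 2.46 at positions called in every library.

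Loss reached nearly every window. The quasi-likelihood test called 181754 windows lower in 2i, 98.6% of the 184269 tested. A call needed an adjusted p under 0.05 (Benjamini-Hochberg, limma-moderated quasi-binomial fit) and a difference of 20 points or more. Both 2i libraries lay below both serum libraries in 183803 windows (99.7%). They overlapped in 464 and lay above in 2. Since 98.6% of windows were called, being called says little about any one of them.

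The 2514 windows that were not called lower or higher had mostly lost methylation too. In 2499 of them the level was lower in 2i, and in 15 it was equal or higher. For 1669 of them the adjusted p passed in the same fit, all lower, and only the minimum difference was missed. Their median level was 75.6% in serum and 59.3% in 2i. They were shallower than other windows, with a median of 39 calls in the least covered library against 72 over all windows. Only 77 of them had a serum level under 40%, out of 123 such windows in all.

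A single window was called higher in 2i (0.000543% of those tested). It lies on chromosome 14, from 46180001 to 46190000 in build NCBIM37. Its bound level was 42.9% and 38.2% in serum (56 and 152 calls) and 55.6% and 71.4% in 2i (36 and 28 calls). The 2i values were above both serum values, a rise of 23.1 points with an adjusted p of 0.00646 in the quasi-likelihood fit. The 95% Wilson intervals, which cover counting error only, ran from 30.8% to 55.9% for serum replicate 1 and from 39.6% to 70.5% for 2i replicate 1, and overlapped. Those of replicate 2 ran from 30.8% to 46.1% in serum and from 52.9% to 84.7% in 2i, without overlap. In the inputs the same window read 41.8% and 71.2% in serum and 49.2% and 38.0% in 2i, which shows no rise. The call was lost when serum replicate 2 or 2i replicate 2 was left out, and the window has under 50 calls in both 2i libraries.

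Windows differed in how much they kept. The middle 90% of windows kept between 33.1% and 66.5% of their serum level, with a median of 48.8%. The spread of levels was wider in 2i (SD over windows 10.1 and 10.8 points) than in serum (7.99 and 7.73 points). Part of the range was counting noise. When windows were ranked on replicate 1 of both media, the top 10% had a median of 69.3% there and of 59.4% in the replicate 2 libraries. The bottom 10% went from 31.1% to 39.2%. The ranking was thus carried over in part: the correlation of the share kept between the replicate pairs was r = 0.446 across 184258 windows, which share libraries and are not independent.

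Each window was also tested against the median window. Of 184258 windows tested, 13247 (7.19%) kept more than the median and 6597 (3.58%) kept less, at an adjusted p under 0.05 in the same limma-moderated fit and a share at least 1.2 times or at most 0.8 times the median. Windows that kept more averaged 83.4% and 83.3% in serum and 56.7% and 56.9% in 2i. Windows that kept less averaged 79.5% in both serum libraries and 24.2% and 24.0% in 2i. These levels chose the classes and are given as a description. The 2 counts should not be compared directly. In simulated data, 119 of 200 windows were recovered at 1.5 times the median share and 51 of 200 at 0.6 times. Without 2i replicate 1 the counts fell to 4369 and 911, and without 2i replicate 2 to 5717 and 1597. They were 12202 and 4358 without serum replicate 2, and 12304 and 4679 without serum replicate 1.

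The input libraries, which did not enter the classes, ordered them in the same way. Windows keeping more in bound DNA kept a median of 60.9% in the input, windows keeping less 32.4%, and all windows 44.8%. Of the first class 93.9% lay above the median window of the input, and of the second 7.82%. Ranked by the share kept in the input, the lowest 10% of windows kept 39.5% in bound DNA and the highest 10% kept 60.4%. Windows called as keeping more rose from 0.160% of the lowest class to 36.2% of the highest. The correlation of bound with input was r = 0.590 over 175496 windows. The points share libraries and base composition, so this is a description and not a test.

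CpG number went with the share kept. Windows were divided into 10 equal classes by CpG positions, counted as those seen in any of the 8 ChIP-BS libraries, so that the count also depends on coverage. The class with the fewest (median 50) kept 43.2% of the serum level, and each further class kept more, up to 55.3% in the class with the most (median 175). Both 2i libraries rose in this order, from 32.6% and 32.3% in the sparsest to 46.5% in both in the densest. Serum libraries rose less, from 75.2% in both to 84.0%. Windows that kept more were 1.45% of the sparsest class and 20.4% of the densest, and windows that kept less were 7.23% and 0.863%. Starting level went the same way. Ranked by serum replicate 1 and read in serum replicate 2, the share kept went from 45.6% in the lowest of 10 such classes to 54.2% in the highest. Ranked by the input level in serum, it went from 44.9% to 55.6%.

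**Figure D2:**
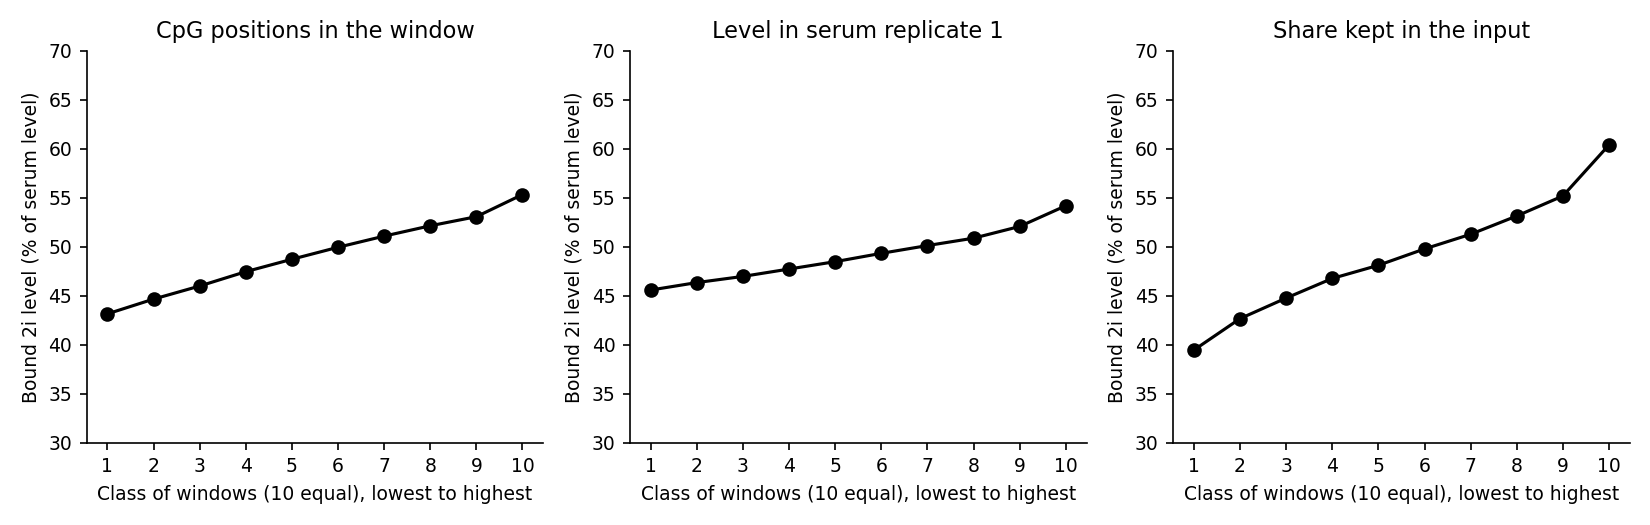
Bound 2i level as percent of the bound serum level (vertical axis, from 30% to 70%) in 10 equal classes of windows (horizontal axis). Classes were ranked by the CpG positions in the window, by the level in serum replicate 1 (read in serum replicate 2) or by the share kept in the input, and the last of these spans the widest range, from 39.5% to 60.4%.

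The relation with CpG number was seen at single positions as well, up to a limit. A CpG with no other CpG within 100 bp stood at 78.9% ± 0.0335 in serum and 35.7% ± 0.222 in 2i (SD, n = 2), and kept 45.3%. With 2 to 3 neighbours the share kept was 52.2%, with 6 to 9 it was 60.2%, and with 10 to 19 it was 64.0%. Position classes up to this one rested on at least 83046 calls per library.

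CpGs with 20 or more neighbours, the density of CpG islands, departed from this order. They read 41.2% and 43.7% in serum and 13.1% and 18.6% in 2i, so that 37.4% was kept, on 2962 or more calls per library. Input calls of this class read only 5.30% ± 1.10 in serum and 2.98% ± 0.748 in 2i (SD, n = 2), where 56.2% was kept. They numbered 21696 or more per library. The class holds 69179 CpGs and calls were pooled over it, so the libraries need not have read the same CpGs. Pooled over this class, bound calls were 8.00 times as methylated as input calls in serum and 5.33 times in 2i. In the class of isolated CpGs the ratios were 1.09 and 1.16. How far the CpGs recovered in each fraction differ was not tested. In the inputs the share kept rose with neighbours from 42.4% to 62.3% at 10 to 19 neighbours.

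**Figure D3:**
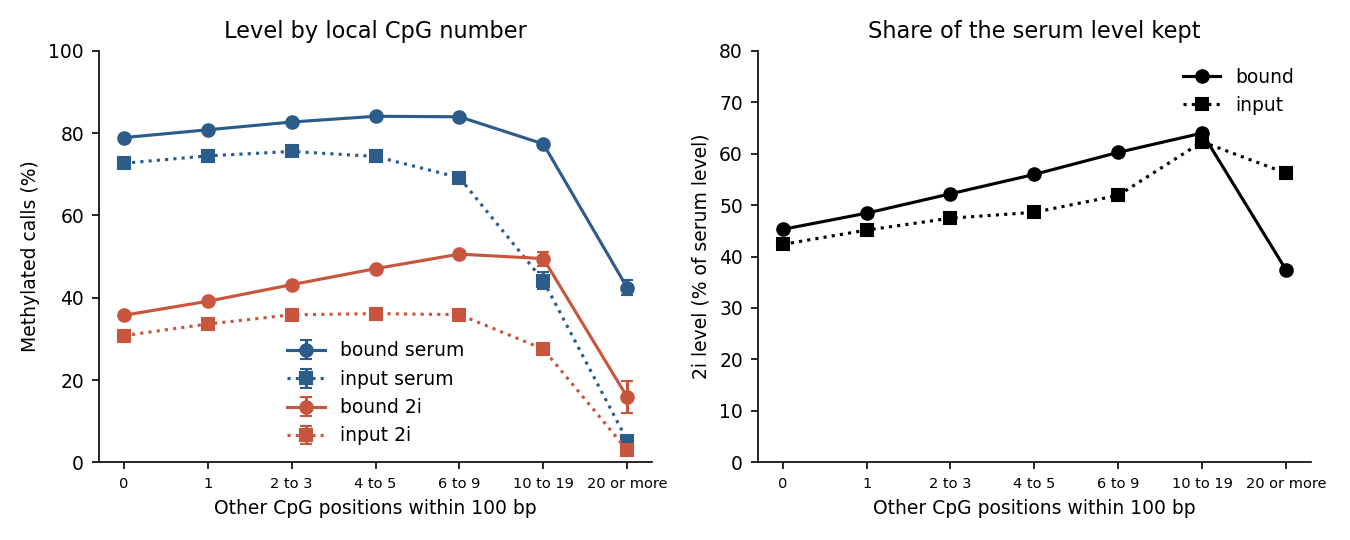
Methylation level (left, %) and 2i level as percent of serum (right) of CpG positions by the number of other CpG positions within 100 bp, in bound (circles) and input (squares) libraries. Points on the left are means with SD (n = 2 libraries). The share kept in bound DNA rises from 45.3% to 64.0% and then drops to 37.4% at 20 or more neighbours.

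Enrichment in the bound fraction was taken as the log2 ratio of bound to input calls of a window, each scaled to its library's total. Windows that kept more had a lower ratio in serum (median 0.05) than windows that kept less (0.29) or all windows (0.26). In 2i the order changed, with medians of 0.34, 0.25 and 0.30. The ratio thus rose by 0.31 in windows that kept more and by 0.01 in all windows, and fell by 0.06 in windows that kept less. Both replicates showed the rise, by 0.32 and 0.28. The bound calls that form the ratio also entered the test that set the classes, and a deeper window is called more easily (median 115.5 bound calls in windows that kept more, 106 in windows that kept less, 95.5 in the others), so these values are a description. Windows that kept more also held more CpG positions (median 131 against 97), and depth per position was lower there, at 0.908 calls per CpG position against 1.07 over all windows and 1.504 in windows that kept less.

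The change of the ratio was therefore read within 5 equal bins of CpG number. In each bin the windows that kept more had the lowest median ratio in serum, except the densest, where windows that kept less stood at -0.48. Their ratio rose in all 5 bins, by 0.47, 0.46, 0.42, 0.33 and 0.18 from the sparsest to the densest. In the other windows the change was 0.09 in the sparsest bin and -0.28 in the densest. A ratio of calls mixes the amount of mark with the recovery of a window in sequencing, and the part of each was not tested.

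**Figure D4:**
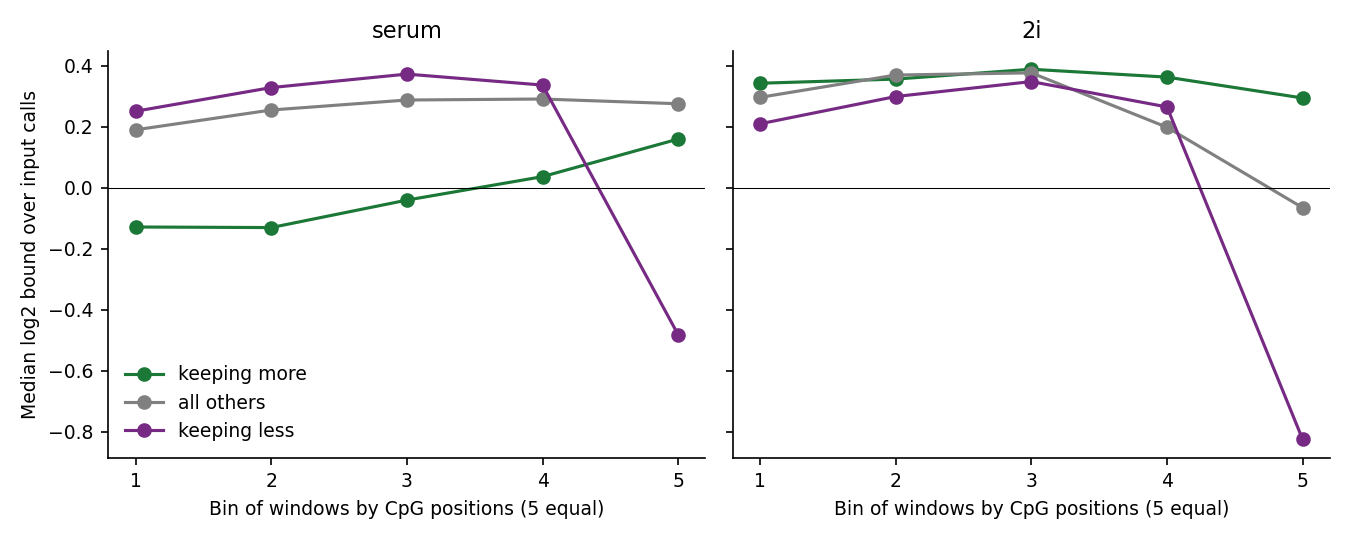
Median log2 ratio of bound to input calls per window in serum (left) and 2i (right), in 5 equal bins of windows from the fewest to the most CpG positions (horizontal axis). Lines separate windows keeping more than the median, keeping less, and all others. Windows keeping more sit lowest in serum in the first 4 bins and rise in 2i to values between 0.29 and 0.39.

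Over all windows, the share kept was also read by enrichment. In 10 equal classes by the serum ratio, the least enriched kept 53.0%, the sixth class kept 47.9% and the most enriched 49.8%. The median CpG number of these classes followed the same order, at 116, 90 and 114. The share kept by serum ratio was not read within bins of CpG number. In classes by the 2i ratio the share kept lay between 48.6% and 50.3%. In classes by the change of the ratio it was 50.0% in the lowest, 47.8% in the fourth and 53.2% in the highest, and windows that kept more were 3.80% of the lowest and 17.7% of the highest. When each CpG-number bin was split by the 2i ratio into 3 equal parts, the most enriched part of the sparsest bin kept 45.0% and the least enriched 42.6%. In the densest bin these were 55.1% and 52.4%, and in the 3 bins between the gap was under 1 point. The order was reversed in the middle bin, with 49.3% in the most enriched part and 49.8% in the least enriched.

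Along the chromosomes, the share kept varied over long distances. Retention of a window in replicate pair 1 correlated with that of its neighbour 10 kb away in replicate pair 2 at r = 0.216 (168538 pairs of windows). The correlation was 0.138 at 100 kb, 0.0535 at 1000 kb and 0.0244 at 2000 kb. In bins of 1 Mb the replicate pairs were close, with r = 0.930 over 2356 bins, and the share kept ran from 35.8% to 66.7% with a median of 49.9%. Only 4 bins kept under 40% and 4 over 60%.

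The bin that kept most was the first of chromosome 9 with data, 3000001 to 4000000. It read 80.6% and 81.0% in serum and 53.8% and 54.0% in 2i. It was followed by 2 bins of chromosome 12, starting at 20000001 (64.0%) and 18000001 (60.7%). The bin that kept least lay on chromosome 17, 39000001 to 40000000, with 74.2% and 74.7% in serum against 25.2% and 28.1% in 2i. Bins of chromosome 4 starting at 77000001 (37.9%) and of chromosome 11 starting at 38000001 (38.2%) came next.

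The share kept was also read by distance from the chromosome ends, of which the first is the centromeric end in the mouse. The first 1 Mb with data kept 52.1% over 19 autosomes, against 49.0% beyond 30 Mb. Windows that kept more were 14.1% of the first and 6.80% of the second. Their median CpG number was similar, 93 and 99. The values of single chromosomes overlapped widely, from 45.8% on chromosome 2 to 59.95% on chromosome 9, so the difference was not shared by all. These are means over kept windows, whereas the 1-Mb bins above pooled calls and gave 66.7% for this start of chromosome 9. From the other end, the last 1 Mb kept 47.6%, and the stretch at 3 to 10 Mb kept 51.5%, with 10.6% of windows keeping more, on a higher CpG number (median 130). At 3 to 10 Mb from the centromeric end the values were 50.5% and 9.42%. Whole autosomes lay close together, from 48.0% (chromosome 16) and 48.5% (chromosome 5) to 50.0% (chromosome 10) and 50.9% (chromosome 13). As a mean over windows, like these values, the X chromosome kept 48.5%, against 49.3% for the autosomes. Over calls at positions with 20 calls or fewer, it kept 49.8%, against 49.5% for the autosomes.

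Most called windows had no adjacent window of their class. Of the windows that kept more, 29.4% lay next to another such window on either side. The class was 7.19% of the windows tested, which is not the adjacency expected from random placement, since a window has a neighbour on each side. The share that random placement would give was not computed. The 13247 windows that kept more formed 11051 runs of adjacent windows, 9352 of them single, and 33 runs had 5 or more windows. The 3 longest had 7 windows each. One lay in the high bin of chromosome 9 (3820001 to 3890000), with bound levels of 89.6% and 82.1% in serum and 59.2% and 62.7% in 2i. The second lay on chromosome 10 (82850001 to 82920000), with 87.1% and 90.1% in serum and 69.7% and 65.1% in 2i. The third lay on the same chromosome (98980001 to 99050000), with 84.7% and 84.5% in serum and 59.6% and 57.4% in 2i. In the inputs these runs kept 73.4%, 80.7% and 61.9%. The longest run of windows that kept less had 5 windows, on chromosome 5 from 49340001 to 49390000, at 83.6% and 79.9% in serum and 26.2% and 23.6% in 2i.

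The single windows that kept most stayed near their serum level. Among called windows with 60 or more calls in every bound library, the highest was on chromosome 3 (40680001 to 40690000). It read 82.1% and 83.2% in serum and 81.0% and 74.5% in 2i, which is 94.4% of serum. A window on chromosome 8 (13710001 to 13720000) read 85.3% and 89.9% in serum and 76.9% and 85.5% in 2i, with input levels of 85.9% and 95.2% in serum and 78.1% and 73.8% in 2i. Windows on chromosomes 5 (from 58040001), 6 (from 47950001) and 7 (from 29000001) kept 92.7%, 92.4% and 91.1%. In the inputs these 5 windows kept 78.6% to 84.9%. All 5 were depleted in the bound fraction in serum, with a log2 ratio of bound to input calls between -1.50 and -0.35 against a median of 0.26 over all windows. In none of the 5 did 2i and serum differ at an adjusted p under 0.05 in the quasi-likelihood fit (0.131 to 0.295), which does not show that they were equal.

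The windows that kept least lost most of their methylation. The lowest, on chromosome 15 (18780001 to 18790000), fell from 67.1% and 63.9% in serum to 6.33% and 10.9% in 2i, or 12.8% of serum. A pair of windows on chromosome 16 kept 15.2% (from 80690001) and 15.9% (from 28050001), and windows on chromosomes 5 (from 28140001) and 4 (from 93420001) kept 16.0% and 16.6%. Their inputs kept 18.4% to 27.5%. These 5 windows held 36 to 96 CpG positions against 156 to 199 in the 5 that kept most. Extreme windows were chosen for their bound values, which are given as a description, and the inputs are the separate reading. Genes in these windows were not assigned, because the annotation used here is of another build.

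The classes were then read in RRBS, which used separate libraries. Tiles (500 bp, at least 20 calls and 3 positions in every sample compared) were sorted into the 10% of windows that kept most in bound DNA, the 10% that kept least, and the rest. In E14, 3383 tiles of the first kind stood at 60.01% and 60.6% in serum and at 37.1% and 37.5% after 168 h in 2i. The 2134 tiles of the second kind stood at 24.4% and 25.1% in serum and at 10.1% in both samples at 168 h. The shares kept were thus 61.9% ± 0.385 and 40.8% ± 0.219 (SD, n = 2), a gap of 21.1 ± 0.166 points.

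The gap opened with time. At 24 h the tiles in windows that kept least were above serum, at 111.8% ± 3.05, against 101.9% ± 1.08 in windows that kept most. At 48, 72 and 96 h the gap was 4.76, 6.34 and 13.1 points in favour of the windows that kept most. Tiles of these windows started from the higher serum level, so the classes differed before 2i. With tiles at 40% or more in serum the gap at 168 h was 19.6 points. Sorting the windows by the input libraries, an alternative chosen after seeing the data, gave 25.3 points.

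**Figure D5:**
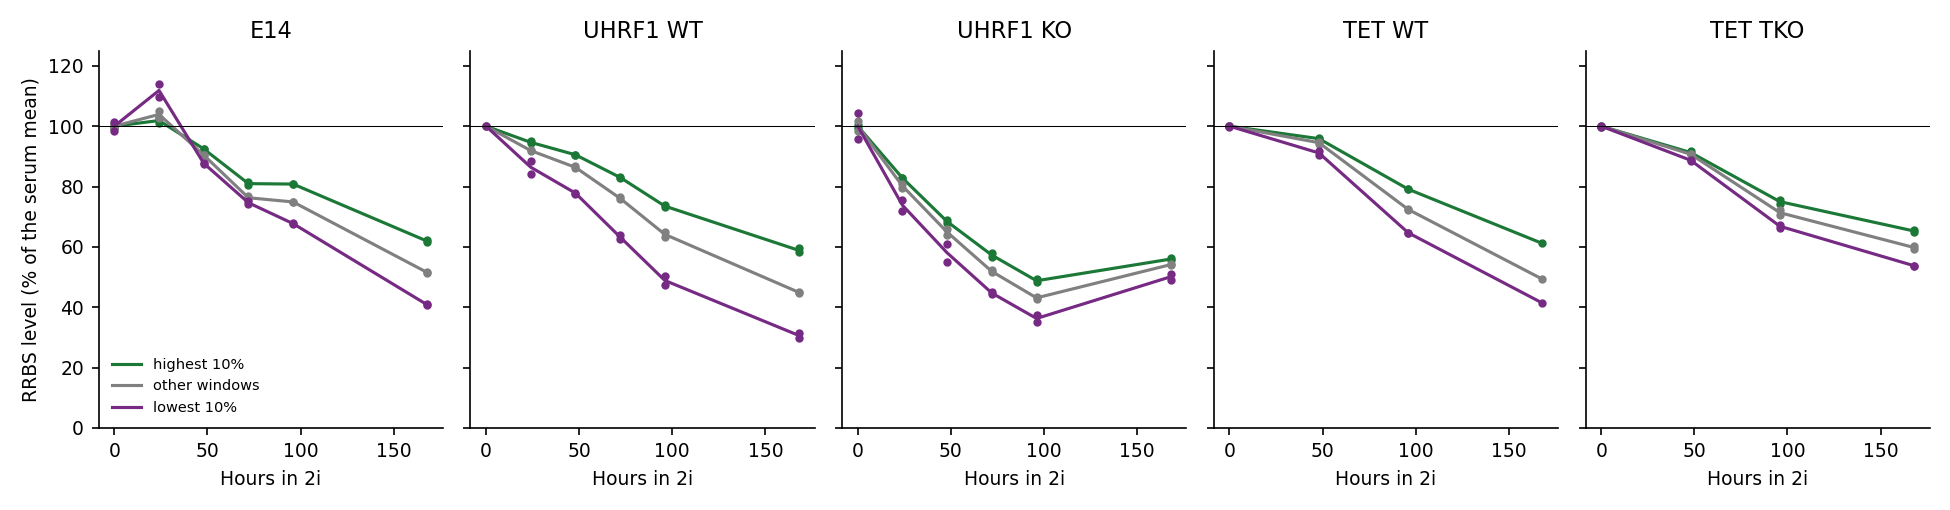
RRBS level as percent of the line's own serum mean (vertical axis) against hours in 2i (horizontal axis, 0 is serum) in 5 lines, for tiles in the 10% of windows whose bound DNA kept most, the 10% that kept least, and all other windows. Points are samples and lines join means. The lines separate with time in E14, UHRF1 WT, TET WT and TET TKO, and in UHRF1 KO they lie closer at 168 h than at 96 h.

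Tiles in the same windows were followed in cells lacking UHRF1, the factor that links DNMT1 to hemimethylated DNA and methylated H3K9. Only 776 tiles of the windows that kept most and 963 of those that kept least were read, a small part of these windows. They stood at 23.6% and 7.37% in UHRF1 WT serum, far below the 81.2% of bound serum DNA. In UHRF1 WT the gap between the classes was 8.24, 12.7, 19.8, 24.7 and 28.2 points at 24, 48, 72, 96 and 168 h. In UHRF1 KO it was 9.01, 10.4, 12.6, 12.5 and 5.87 points. The gap was lower in KO at 4 of 5 times, and KO minus WT was -8.66 points on average. Exact two-sided permutation of genotype within times gave p = 0.00386 (adjusted over the 2 genotype tests, 0.00772). The serum mean of a line was taken as fixed and is shared by all its times, so its error is left out of these p-values. Among the 2 KO serum samples the gap itself had an SD of 5.35 points. Labels were permuted at each time separately, as if the times were independent. Each genotype was a single line, so the p-values describe these samples and not the genotype in general. The same holds for the TET test below. At 168 h the 2 KO samples gave 7.02 and 4.71 points, below the 29.7 and 26.7 of WT.

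UHRF1 KO tiles fell faster at first in every class. Tiles of the windows that kept most were at 48.7% of serum after 96 h in KO and 73.5% in WT, and tiles of the windows that kept least at 36.3% and 48.8%. At 168 h the class that kept most stood at 55.9% of serum in KO and 58.8% in WT, and the class that kept least at 50.1% and 30.6%. Both KO classes were thus higher at 168 h than at 96 h. Levels in serum were 22.2% in KO and 23.6% in WT for the first class, and 6.25% and 7.37% for the second. At 168 h they were 12.4% in KO and 13.9% in WT for the first class. For the second they were 3.13% and 2.26%, so its shares rest on low levels. This set rests on 776 and 963 tiles and on 1 usable serum sample of UHRF1 WT. With tiles at 40% or more in serum, the average difference was -3.99 points and did not pass (exact permutation p = 0.145).

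Cells without TET enzymes, which oxidise methylated cytosine, also showed a smaller gap. It was 4.74, 14.5 and 19.8 points in TET WT at 48, 96 and 168 h (1 sample at 168 h) and 2.57, 8.17 and 11.5 points in TET TKO. The gap was lower in TKO at 3 of 3 times. TKO minus WT was -5.57 points on average, with an exact two-sided permutation p of 0.00926 (adjusted, 0.00926), the smallest this design allows. TKO tiles started higher in serum, at 51.0% against 42.3% for windows that kept most and 19.4% against 12.6% for windows that kept least. With tiles at 40% or more in serum, the gap was lower in TKO at 2 of 3 times, by an average difference of -4.17 points (exact permutation p = 0.0370). TKO minus WT was -3.25 points between the top and bottom of 3 equal classes of windows and -9.45 in tiles with 50 or more calls. With windows sorted by the input libraries in place of bound DNA, the difference was -6.71 for TET and -8.28 for UHRF1 (exact permutation p = 0.00926 and 0.00386). At 168 h tiles of the windows that kept least stood at 53.7% of serum in TKO and 41.4% in WT, and tiles of the windows that kept most at 65.2% and 61.1%. Without replicate 1 or without replicate 2 of each group that has 2, the differences were -7.14 and -10.3 points for UHRF1 and -6.03 and -5.10 for TET, in designs too small for a call. Whether UHRF1 KO and TET TKO differ in this respect was not tested, since their sets rest on other tiles and times.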

How the data were processed

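Processed files of 8 ChIP-BS libraries and 50 usable RRBS samples were read, and 1 RRBS sample (UHRF1 WT serum replicate 2), whose file is nearly empty, was left out. The authors deposited, for each cytosine, a percent methylation value with the methylated and the unmethylated read counts behind it. Here only the counts were used. The layout is that of Bismark. The submitters' processing notes name Trim Galore 0.3.5, Bismark 0.12.3 and Bowtie2 without assigning them to assays, and removal of duplicate reads is not stated there. Positions reach 197195361 on chromosome 1, past its end in GRCm38, so coordinates were read as NCBIM37. Bisulfite conversion does not separate 5-methylcytosine from 5-hydroxymethylcytosine. Intervals and floors cover counting error only, since reads of 1 fragment or PCR copies are not independent.

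Positions with over 20 calls held 7.47% to 9.14% of autosomal calls in bound libraries and 10.8% to 12.1% in inputs. They were 81.6% methylated in bound serum and 67.5% to 68.8% in bound 2i. Groups came from the sample labels. Methylated and unmethylated counts per window were fitted by a quasi-binomial model in R 4.3.3. The squeezeVar function of limma 3.58.1 moderated the dispersions, and p-values came from quasi-likelihood F tests, adjusted by Benjamini-Hochberg over all windows. Moderation had 143 prior degrees of freedom against 2 residual, so a window's own spread entered little. Shares kept were compared with the median window (48.9%, with 0.5 calls added) on the scale of levels. This was done at windows with a mean level of 20% or more. The planned statistic, the log ratio, gave too many false calls on simulated data and was replaced. On simulated data with 200 changed windows among 184269, the tests recovered 81 at -20 points, 159 at -30 points, 119 at 1.5 times and 51 at 0.6 times the median share, with 3, 11, 10 and 2 false calls.

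Named regions were the 5 called windows with the highest and the 5 with the lowest share kept (60 or more calls in each bound library, both replicate pairs on the same side, at least 1 Mb apart), the windows called higher in 2i, and the 3 longest runs of windows keeping more. Sequences and genes of these windows were not analysed here, since no genome of this build was used. Replicate numbers were not used as a block in any main test. Same-numbered serum and 2i libraries were set together only to read the share kept in separate sets of libraries. Exact permutation tests enumerated all arrangements in Python 3.11.15 with numpy 2.4.6. Windows, groupings and lists were chosen with earlier results of these data known.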

Additional observations from a re-analysis of the deposited data

Results flagged for a closer look

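In RRBS the gap in the share of serum methylation kept, between tiles in the 10% of windows whose H3K9me2-bound DNA kept most and the 10% that kept least, differed between genotypes. UHRF1 KO minus UHRF1 WT was -8.66 points (lower at 4 of 5 times, exact permutation p = 0.00386, adjusted 0.00772), and the WT serum value rests on 1 sample. In tiles at 40% or more in serum it was -3.99 (lower at 3 of 5 times, exact permutation p = 0.145). The time with the widest difference was 168 h, with a gap of 5.87 points in KO and 28.2 in WT. Tiles of the windows that kept least then stood at levels of only 3.13% in KO and 2.26% in WT. TET TKO minus TET WT was -5.57 points (lower at 3 of 3 times, exact permutation p = 0.00926, adjusted 0.00926), where TET WT has 1 sample at 168 h. With windows sorted by the input libraries the values were -8.28 and -6.71 (exact permutation p = 0.00386 and 0.00926). Labels were permuted at each time separately and each genotype was a single line, so these p-values describe these samples only.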

How the results depend on the processing

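No result changed direction under any alternative run. Of 114 alternatives over 11 results, 77 kept the call or stayed within the limits used for values and counts. For the loss in points and for bound against input, no p under 0.05 was possible in any run. Their alternatives, 9 for each result, thus counted as kept unless the direction changed, and say little about stability. The share of the bound serum level kept was 52.5% with no limit on calls per position, 49.8% without positions of over 5 calls, 49.3% as a mean over windows, 48.6% at positions called in all bound libraries and 49.8% on the X chromosome. These moves exceed the spread between replicates. Leaving out 1 library gave 49.3% to 49.7%, and a loss between -41.1 and -40.9 points. In windows of 50 kb, of which there are fewer, 46592 were lower, 3235 kept more and 2310 kept less. Windows keeping less numbered 3048 without positions of over 5 calls, 3555 with 1 or more calls and 2697 in 2-kb windows. Windows higher in 2i numbered 0 without positions of over 5 calls, with 50 or more calls and in 50-kb windows, 8 with 1 or more calls and 2 in 2-kb windows. With 1 bound library left out, 180258 to 190871 windows were lower, 0 to 1 higher, 4369 to 12304 kept more and 911 to 4679 kept less, and the lone library was assumed to vary like the rest. The bound-minus-input difference then ran from -1.59 to -0.455 points, and that of the shares kept from 3.48 to 4.18. With no limit on calls per position these were -1.91 and 1.84, and at positions called in every library -0.783 and 2.46. The E14 gap at 168 h was 12.8 points between the 3-part classes (top and bottom of 3), 24.3 with 50 or more calls, 19.6 in tiles at 40% or more in serum, 19.3 and 18.1 with classes from replicate 1 or 2 alone, 25.3 with classes from the inputs and 20.7 to 21.5 with 1 replicate left out. The UHRF1 difference was -3.99 points in tiles at 40% or more in serum (exact permutation p = 0.145). Without 1 replicate it was -10.3 to -7.14 and the TET difference -6.03 to -5.10, where p could not fall below 0.0625 and 0.25 in these designs. The labels share replicate numbers, but same-numbered samples did not deviate together (r = 0.00313 between bound serum and 2i over windows, and -0.00336 to 0.0224 between genotypes over RRBS tiles). The TET difference was -3.25 with the 3-part classes and -9.45 with 50 or more calls. A replicate block gave 181742 windows lower, 13567 keeping more and 6895 keeping less, an exact permutation p of 0.0117 for UHRF1 and a TET difference of -5.45 (exact permutation p = 0.0625, the smallest possible). It left the bound-minus-input difference at -1.02 (exact permutation p = 0.750). The scale of shares for bound against input, the block for shares and the classes from the inputs were chosen after seeing the data. At a median of 84 to 107 calls per library, 159 of 200 simulated losses of 30 points were recovered, and 81 of 200 at 20 points. Recovery was judged by the adjusted p alone, without the minimum difference. All other simulated windows kept their serum level, whereas 98.6% of the real windows were called. The adjustment was thus stricter in the simulation, and these rates do not give the recovery in the real comparison.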

Other observations

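Positions with over 20 calls, which the rule for windows left out, are described here at the same positions in every library. In all 7514 autosomal positions passed 20 calls in at least 1 bound library. Their pooled level was 81.5% and 81.6% in bound serum and 67.1% and 67.9% in bound 2i, each on at least 1819525 calls. In the inputs the same positions read 80.5% and 80.1% in serum and 67.6% and 68.1% in 2i. Windows that held such a position were 2.35% of those keeping more, 2.79% of those keeping less and 1.86% of all. Without these windows the median share kept was 48.8% over all windows.

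Mitochondrial calls in the bound libraries were methylated at 0% to 0.987%, on 296 to 542 calls. In the inputs, on 42227 to 55325 calls with no limit per position, they were methylated at 0.424% to 0.490%.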
